A study of Arabidopsis thaliana with 4 samples.

Results

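In leaves of wounded wild-type Arabidopsis thaliana, 118 probe sets were at least 2-fold above the unwounded level while their response in opr3 was at least 2-fold smaller. They were picked from 22810 probe sets in the table, of which 14599 plant probe sets had a log2 value of 4.73 or more on at least 1 array, and for 576 of these wounded wt exceeded wt control by 2-fold or more (log2 difference of 1 or more). Of the 576, 132 had a response in opr3 smaller by a log2 value of 1 or more, and 14 of them were left out by name. These are AT2G38240, JRG21, BSMT1, JMT, TBL26, TBL37, AT2G43550, JAL23, AT3G51450, APS3, PUB23, AT4G29780, UGT76E12 and UGT78D1. Since the choice used all 4 arrays, the values below describe the members and support no test.

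Each group was 1 Affymetrix ATH1 array of rosette leaf RNA from 6-week-old plants, kept at 21 °C in days of 10 h light and 14 h dark. The groups were unwounded wt (wt control), wt 2 h after wounding (wt wounded), unwounded opr3 (opr3 control) and opr3 2 h after wounding (opr3 wounded). In the wounded groups some leaves were crushed across the midvein and RNA came from the other leaves, so the response is systemic. The allele and accession of either line and the number of plants per array are not stated in the labels. For the opr3 wounded sample the title gives the group used here, although its treatment text names WT plants. With 1 array per group, no difference below has a replicate check.

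Jasmonates are lipid-derived hormones of wounding. OPR3 is a peroxisomal reductase that takes the precursor OPDA towards jasmonic acid, whose isoleucine conjugate is sensed by the receptor COI1 and relieves transcription factors such as MYC2 from JAZ repressors. In leaves the hormone is known for inducing anti-herbivore proteins, storage-type proteins, lipases and enzymes of secondary metabolism, also in leaves that were not wounded themselves. The level of OPR3 itself was not analysed here, because no entry of the annotation table carries its name. That table leaves 8730 plant probe sets unlisted, so OPR3 may be measured by one of them. Since 77 of the members are unlisted too, a probe set of OPR3 itself may be among the members.

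Between the arrays, column means lay from 5.8954 to 5.8956. The wt wounded array stood apart in the spiked-in bacterial transcripts, whose mean 5′ minus 3′ log2 difference over 7 probe set pairs was -2.03, whereas it came to -1.19 for wt control, -1.32 for opr3 control and -1.34 for opr3 wounded. For plant actin the same difference was -1.52 in wt wounded and -0.96, -1.16 and -0.95 in wt control, opr3 control and opr3 wounded. The mean over 3 plant pairs, actin among them, was -0.47 in wt wounded and -0.2, -0.34 and -0.21 in the others in that order. The part of this in the members' values was not tested. Leaf genes RCA, PRK and LHCB4.1 lay between 12.21 and 13.57 on all arrays. Of the other markers written, the root gene HRGP1 lay between 5.18 and 5.40, the stomatal gene FMA between 6.06 and 6.45 and the phloem gene SWEET11 at 10.45, 9.86, 9.37 and 9.58 on the arrays in the order above. Their part in the members' values was not tested either. The other markers of guard cells, phloem and root, and all those of trichomes, flowers and seeds, had no named probe set. In whole leaves, fewer cells of a type and less RNA per cell cannot be told apart.

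Among the members the wounded wt array was the highest of the 4 for all 118, and by the median the remaining arrays lay well below it. The median log2 level was 5.86 in wt control, 8.0 in wt wounded, 5.24 in opr3 control and 5.75 in opr3 wounded. For comparison, medians over all probe sets that passed the filter lay between 6.68 and 6.76. Levels ran from 3.57 to 10.16 in wt control, from 5.26 to 11.97 in wt wounded, from 3.48 to 9.76 in opr3 control and from 3.44 to 10.29 in opr3 wounded. Wounded opr3 was close to unwounded wt by the median. In 60 of the 118 the opr3 wounded value was below the wt control value, in 58 it was at or above it, and in 10 it was above by a log2 value of 1 or more. The lowest array was opr3 control in 73 members, opr3 wounded in 25 and wt control in 20. For opr3 control this came to 61.9% of members, against 71.0% of the 576 that met the wt limit. A lowest opr3 control was thus less common among the members, but the rule used these arrays and itself affects the share.

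**Figure D1:**
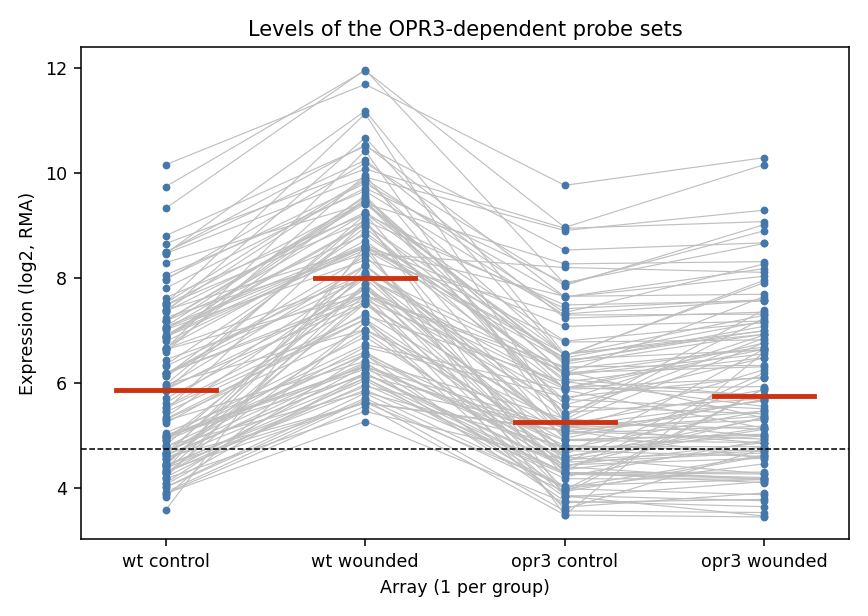
Log2 expression (y axis) of the 118 members on the 4 arrays (x axis), with 1 point per probe set, grey lines joining a probe set's values, red bars at the medians and a dashed line at the filter level of 4.73. The median is 8.0 in wt wounded, against 5.86, 5.24 and 5.75 on the other arrays.

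The median wounding response of the members was a log2 difference of 1.86 in wt (3.64-fold) and 0.27 in opr3 (1.21-fold), and the median difference of the responses, opr3 minus wt, was -1.55. Over all 14599 probe sets these medians were -0.05, -0.03 and 0.03. Responses at least 2-fold upward made up 3.95% of all probe sets in wt and 4.85% in opr3, and 1.32% of all probe sets and 22.9% of the wt-induced ones had a difference of responses at least 2-fold downward, but the rule used these contrasts and nothing is read from the comparison. Near the limit the choice was gradual, with 16 members between -1.1 and -1 in the difference of responses, and 17 wt-induced probe sets outside it between -1 and -0.9.

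Close to the limit, named genes inside and outside had much the same values. Just inside lay AT1G77420 (-1.02), AT5G19100 (-1.03), AT4G28290 (-1.06) and AT1G44790 (-1.08). Just outside lay GH9B8, a glycosyl hydrolase family gene, at -0.9997, GTR1, a glucosinolate transporter, at -0.99, and AT3G48450 and AT1G61610, both at -0.98. GTR1, for example, was at 7.81 in wt control, 9.19 in wt wounded, 7.42 in opr3 control and 7.81 in opr3 wounded.

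In opr3 99 members changed by less than 2-fold on wounding. The lower and upper quartiles of the opr3 response were 0.004 and 0.70 for the members, against -0.27 and 0.26 for all probe sets. The response was within 0.25 of no difference in 46 members, between 0.25 and 0.5 in 20, between 0.5 and 1 in 24, and -0.25 or less in 9. A response of 1 or more was left in 19 members, or 16.1%, against 60.8% of all 576 wt-induced probe sets and 4.85% of all probe sets, a share that the rule itself lowers. None of the 118 had a response of -1 or less in opr3, against 1.68% of all probe sets. These 19 had a median wt response of 3.22 and a median opr3 response of 1.46, whereas the other 99 had medians of 1.77 and 0.15. By construction a member can reach 1 in opr3 only where its wt response is at least 2. Of the 18 members at least 8-fold higher in wounded wt, 12 kept a response of 1 or more in opr3, and their opr3 responses ran from -0.38 to 3.11 with a median of 1.49.

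**Figure D2:**
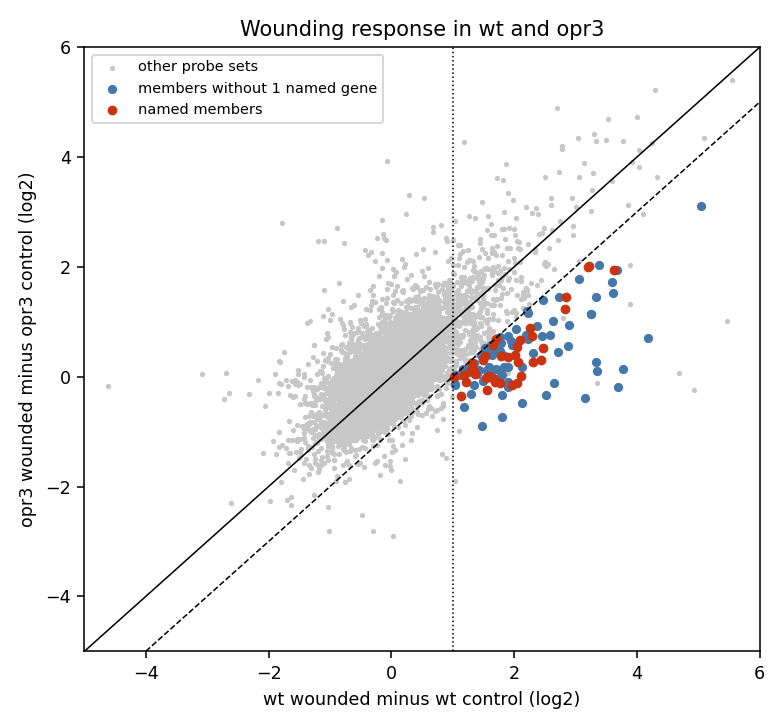
Wounding response in opr3 (y axis, log2) against that in wt (x axis, log2) for all 14599 probe sets that passed the filter, with named members in red, members without 1 named gene in blue and other probe sets in grey. The solid line marks equal responses, the dashed line a response smaller by 1 in opr3 and the dotted line a wt response of 1; 19 members reach 1 or more in opr3, and none reaches -1. Grey points beyond both limits are those left out by name.

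Each difference of responses is the opr3 minus wt difference between the wounded arrays, less that between the control arrays. A lower opr3 control thus makes the difference of responses less negative. After wounding, all 118 members were lower in opr3 than in wt, 108 of them by at least 2-fold. The share so much lower was 1.66% of all probe sets and 32.3% of the wt-induced ones. The rule itself raises the members' counts, so nothing is read from the comparison. Between the wounded arrays the median difference was -1.88, or 3.68-fold, and the range ran from -5.65 to -0.36. Before wounding, 92 members were lower in opr3, with a median of -0.29 and a range from -2.27 to 1.06. A control value below that of wt was found in 78% of members, 74.8% of all wt-induced probe sets and 58.8% of all probe sets, so the members' share was near that of the wt-induced ones.

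In opr3 controls 15 members were already at least 2-fold lower, a state found in 0.575% of all probe sets and 8.51% of the wt-induced ones. The range over these 15 was from -2.27 to -1.0, and in 12 of them the opr3 wounded value was still below the unwounded wt value. Named among them were the invertase gene AT1G62660 (-1.17) and the hydrolase gene AT2G39420 (-1.6). In the opposite direction AT5G52050 alone was at least 2-fold higher in opr3 controls (1.06), against 0.418% of all probe sets and 0.694% of the wt-induced ones. For AT5G52050, AR781 and XTH18 the control arrays made up over 50% of the difference of responses, which was not so for the other 115. The wt control values of AT5G52050 (4.67) and XTH18 (4.43) lay under the filter level, so these shares are approximate, and with every array required at that level no member was 2-fold higher in opr3 controls.

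**Figure D3:**
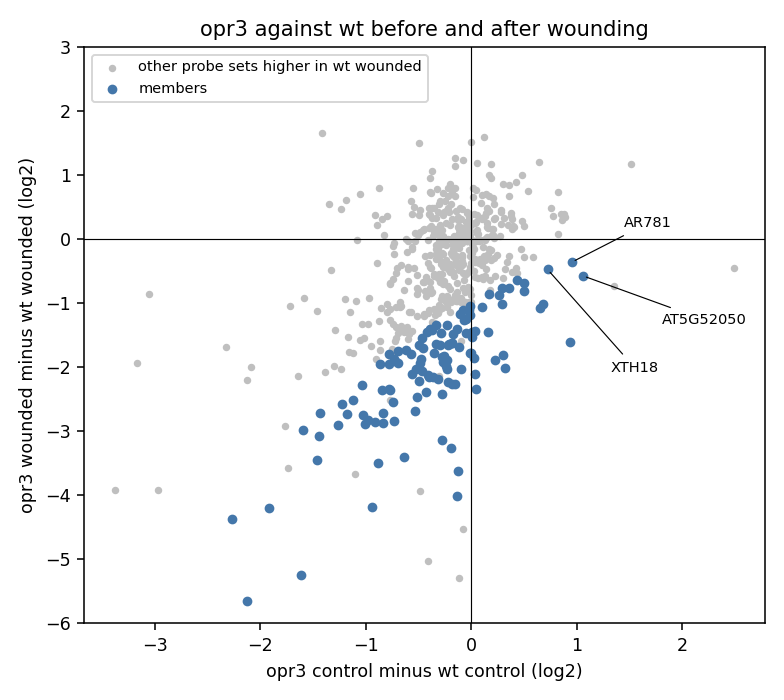
Difference between opr3 and wt in wounded plants (y axis, log2) against that in control plants (x axis, log2) for the 118 members (blue) and the other probe sets at least 2-fold higher in wounded wt (grey). All members lie below 0 on the y axis, and the 3 labelled genes owe over 50% of their difference of responses to the control arrays.

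Only 37 members, or 31.4%, were paired with 1 gene in the platform annotation, against 54.6% of all probe sets that passed the filter and 44.6% of the wt-induced ones. A further 4 were paired with several genes and 77 were not listed, so 81 members are described by their values alone. Each of the 14 probe sets left out by name had a gene name. They were removed from the members but not from the sets compared, which lowers the members' named share. Named members had a median wt response of 1.78 and a median opr3 response of 0.28. In the 81 the medians were 1.89 and 0.27. All 6 members with a difference of responses of -3 or less are among the 81, and of the 24 at -2 or less 5 were named. JRG21 (-4.62) and AT2G38240 (-4.45) also lay at -3 or less but had been left out by name. The groups of named genes below come from known roles, and were drawn up after the values were seen.

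Defence and storage-type proteins had 5 named members, each past the 2-fold limit upward in wt (2.04-fold to 4.18-fold) and none past that limit in opr3 (log2 -0.14 to 0.54). JAL34, a jacalin-related lectin, was at 5.70 in wt control, 7.67 in wt wounded, 5.55 in opr3 control and 5.41 in opr3 wounded. AT4G24350, of the phosphorylase superfamily that includes plant storage proteins, was at 6.18, 8.24, 5.43 and 5.70 on the same arrays in that order. Both genes were high on the wt wounded array alone, by 3.91-fold and 4.18-fold over wt control.

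The highest level in this group was that of AT2G43530, of the defensin-like family, at 8.49 in wt control, 10.53 in wt wounded, 7.64 in opr3 control and 8.18 in opr3 wounded. Its response was 4.14-fold in wt and 1.45-fold in opr3. A pair of adjacent genes of the aspartyl protease family followed, AT5G19110 at 4.78, 6.55, 4.81 and 4.69 and AT5G19100 at 4.79, 5.82, 4.78 and 4.78. For these 2 genes the wt control and both opr3 arrays lay within 0.12 of each other, close to the filter level, and wounding in wt gave about 3.41-fold and 2.04-fold.

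Lipases and other hydrolases made up 6 named members, 2.94-fold to 5.53-fold higher in wounded wt, with opr3 responses from -0.25 to 0.89. AT2G03980, of the GDSL lipase family, was at 7.07 in wt control, 9.54 in wt wounded, 6.16 in opr3 control and 6.68 in opr3 wounded, and so 7.24-fold lower in opr3 than in wt after wounding. AT1G54020 of the same family stood at 4.28, 6.32, 3.74 and 3.64, under the filter level on every array except wt wounded. Its difference of responses, about 4.43-fold, was thus taken against values near background. Here and below, near background means under the filter level, which lies at the 40.05th percentile of all values. The background itself was not measured here.

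Among the alpha/beta hydrolases, AT2G39420 was at 7.18 in wt control, 9.45 in wt wounded, 5.58 in opr3 control and 6.47 in opr3 wounded. Here opr3 was lower before wounding (3.03-fold) as well as after it (7.88-fold, the largest such difference among named members). AT1G77420, also an alpha/beta hydrolase, was at 6.90, 8.61, 6.48 and 7.17, with a response of 3.28-fold in wt and 1.62-fold in opr3. Both kept part of the wounding response in opr3.

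AT4G17470, of the palmitoyl-protein thioesterase family, was at 4.63 in wt control, 6.18 in wt wounded, 4.4 in opr3 control and 4.15 in opr3 wounded. AT4G29700, of the alkaline phosphatase-like family, was at 3.89, 5.56, 3.48 and 3.44. These 2 genes passed the filter through the wt wounded array only, so their folds of about 2.94 and about 3.18 in wt are approximate, and a low response in opr3 could not be measured near background.

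Enzymes of metabolism gave 8 named members, 2.89-fold to 5.44-fold higher in wounded wt and all within 2-fold in opr3 (log2 -0.09 to 0.74). AT1G06620, of the 2-oxoglutarate-dependent dioxygenase superfamily, was at 4.09 in wt control, 6.53 in wt wounded, 3.82 in opr3 control and 4.12 in opr3 wounded. AT1G06640 of the same superfamily and chromosome neighbourhood was at 7.36, 9.25, 6.80 and 7.15. Although the first lay near background and the second well above it, both were high in wounded wt alone, by about 5.44-fold and by 3.72-fold.

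AT2G34810, of the FAD-linked berberine bridge enzyme family, was at 5.92 in wt control, 8.23 in wt wounded, 5.09 in opr3 control and 5.37 in opr3 wounded. 4CL8, of the family of acyl-activating enzymes, was at 4.28, 5.97, 4.28 and 4.19. In opr3 their responses were 1.21-fold and about 1.06-fold, against 4.95-fold and about 3.21-fold in wt. MSRB6, a methionine sulfoxide reductase that repairs oxidised proteins, was at 8.06, 9.65, 7.29 and 7.31, and its opr3 arrays differed by 0.02.

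Primary metabolism was represented by 3 genes. AT1G62660, a vacuolar invertase that splits sucrose, was at 6.12 in wt control, 8.42 in wt wounded, 4.95 in opr3 control and 5.69 in opr3 wounded, 2.26-fold lower in opr3 before wounding and 6.63-fold lower after it. AT4G24830, the argininosuccinate synthase of arginine synthesis, was at 7.04, 8.57, 6.55 and 6.92. AT1G44790, of the ChaC family of gamma-glutamyl cyclotransferases that act on glutathione, was at 6.87, 8.53, 6.41 and 7.0. For the last pair the opr3 wounded level came to within 0.13 of unwounded wt.

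**Figure D4:**
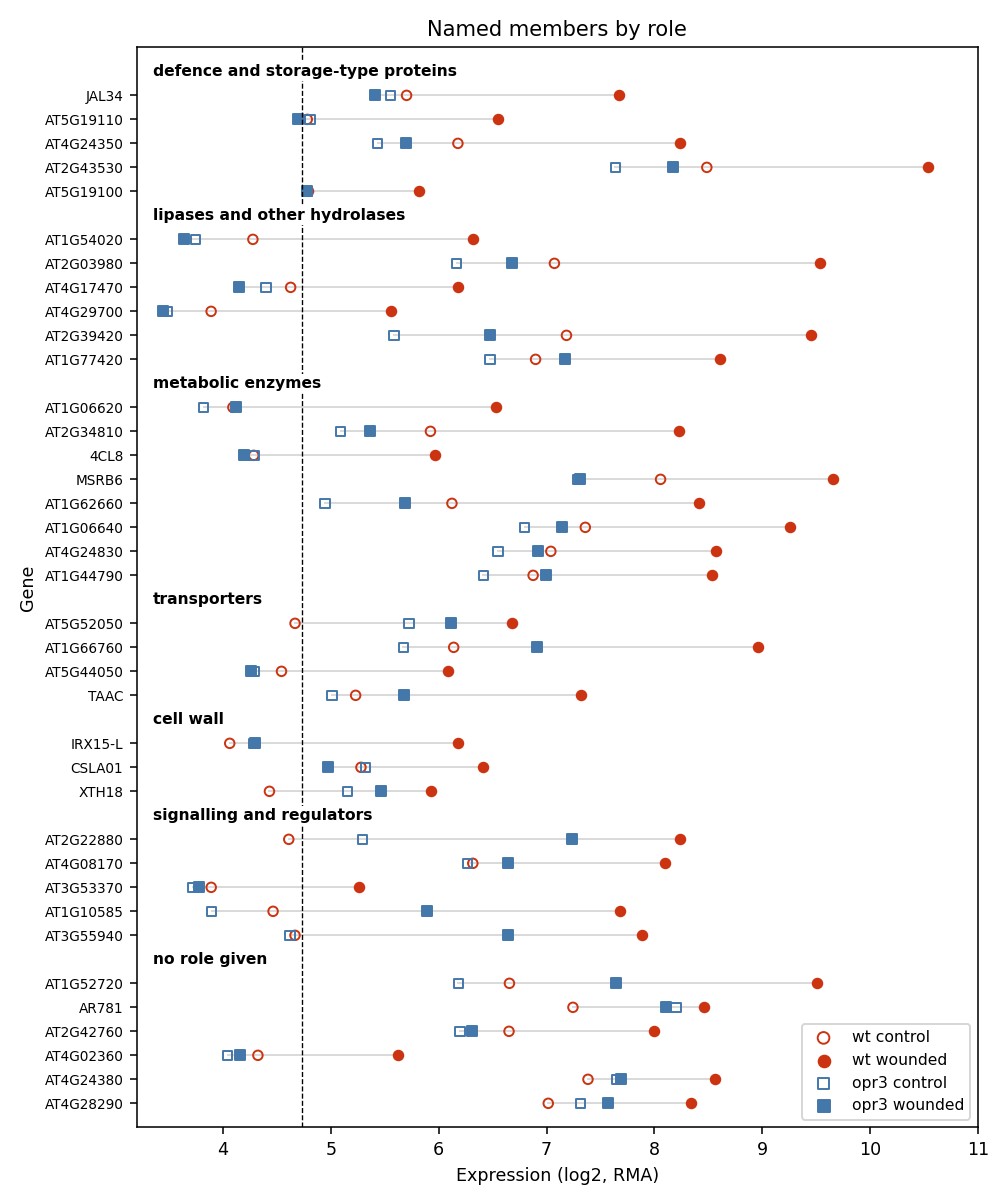
Log2 expression (x axis) of the 37 named members (y axis, grouped by role and ordered by the difference of responses), with circles for wt, squares for opr3, open symbols for control, filled symbols for wounded and a dashed line at the filter level of 4.73. The filled circle, wt wounded, is the rightmost symbol for every gene.

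Transporters had 4 named members, 3 of them of the MATE family of efflux carriers. AT1G66760 was at 6.14 in wt control, 8.96 in wt wounded, 5.67 in opr3 control and 6.91 in opr3 wounded, and its 7.08-fold response in wt was 2.36-fold in opr3. AT5G44050 was at 4.54, 6.09, 4.29 and 4.26, above the filter level in wt wounded only. AT5G52050, known as DTX50 and as an abscisic acid exporter, was at 4.67, 6.68, 5.73 and 6.11, so that its opr3 arrays lay between those of wt.

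The fourth transporter was TAAC, the ATP/ADP carrier of the thylakoid membrane, at 5.23 in wt control, 7.32 in wt wounded, 5.01 in opr3 control and 5.68 in opr3 wounded. It responded by 4.27-fold in wt and 1.59-fold in opr3. The 3 MATE genes did not share a pattern in opr3, where 1 was past the 2-fold limit, 1 started from a raised control and 1 was near background on both arrays.

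Cell wall genes had 3 named members. IRX15-L, which acts in the making of xylan, was at 4.06 in wt control, 6.18 in wt wounded, 4.29 in opr3 control and 4.30 in opr3 wounded. CSLA01, of the cellulose synthase-like family that makes mannan backbones, was at 5.28, 6.41, 5.32 and 4.98. IRX15-L passed the filter through the wt wounded array only, so the other 3 values lie near background and their differences are approximate. For CSLA01 the controls of the lines differed by 0.04, and the response in opr3 was -0.34.

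XTH18, a xyloglucan endotransglucosylase that remodels the wall, was at 4.43 in wt control, 5.93 in wt wounded, 5.15 in opr3 control and 5.46 in opr3 wounded. After wounding it was only 1.39-fold lower in opr3 than in wt, while its control level was about 1.65-fold higher there.

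Signalling proteins and regulators had 5 named members, and 3 of them were among the 5 named members with an opr3 response of 1 or more. These 3 had the largest wt responses of the named members. By the rule only a wt response of at least 2 allows 1 or more in opr3. Counts past the 2-fold limit in opr3, here and in the groups above, are thus not read as traits of a group. AT2G22880, of the VQ motif family that binds WRKY factors, was at 4.61 in wt control, 8.24 in wt wounded, 5.29 in opr3 control and 7.23 in opr3 wounded. From a wt control value near background it responded by about 12.4-fold in wt, with a 3.84-fold response in opr3. AT1G10585, of the basic helix-loop-helix family of transcription factors, was at 4.46, 7.68, 3.89 and 5.89, about 9.27-fold in wt and about 3.99-fold in opr3.

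AT3G55940, of the phosphoinositide-specific phospholipase C family, was at 4.67 in wt control, 7.88 in wt wounded, 4.62 in opr3 control and 6.64 in opr3 wounded. Its responses were about 9.30-fold and about 4.07-fold. In these 3 genes the wounded opr3 array was thus second highest, above both controls.

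The remaining regulators were lower in their wt response. AT4G08170, an inositol phosphate kinase, was at 6.32 in wt control, 8.10 in wt wounded, 6.27 in opr3 control and 6.64 in opr3 wounded. AT3G53370, of the S1FA family of small DNA-binding proteins, was at 3.89, 5.26, 3.72 and 3.78. Neither reached 2-fold in opr3, where the responses were 1.29-fold and about 1.04-fold.

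For 6 named members no role is given here. AT1G52720 was at 6.66 in wt control, 9.51 in wt wounded, 6.18 in opr3 control and 7.64 in opr3 wounded, a response of 7.22-fold in wt and 2.75-fold in opr3. AR781 was at 7.24, 8.46, 8.20 and 8.10, with opr3 control 1.94-fold above wt control. AT2G42760 was at 6.65, 8.0, 6.2 and 6.31. In opr3 the first kept a reduced response, the second had a raised control and the third a response of 0.11.

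AT4G02360 was at 4.32 in wt control, 5.62 in wt wounded, 4.04 in opr3 control and 4.16 in opr3 wounded. AT4G24380 was at 7.38, 8.56, 7.65 and 7.69, and AT4G28290 at 7.02, 8.34, 7.31 and 7.57. In the last 2 genes opr3 control lay above wt control by 0.27 and 0.30, and after wounding opr3 was lower by less than 2-fold.

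Of the members without 1 named gene, one of those with a difference of responses of -3 or less was at 4.42 in wt control, 8.11 in wt wounded, 4.29 in opr3 control and 4.09 in opr3 wounded, near background on every array except wt wounded. Another, with the largest wt response of all members, was at 3.57, 8.62, 3.48 and 6.59, and kept a log2 response of 3.11 in opr3, both responses being taken against controls near background. Wt responses in the 81 ran from 1.04 to 5.04 and opr3 responses from -0.90 to 3.11. Of all 118 probe sets 8, or 6.78%, had an identifier ending in _s_at, which marks probes shared by several transcripts, against 3.55% of all probe sets for _s_at and _x_at together, so signals of gene family members may be joined in these 8.

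Low values shaped part of the set. In 72 members every array reached the filter level, whereas 46 were under it on at least 1 of the 3 arrays other than wt wounded, and 21 on all of those 3. The 21 entered only through wounded wt and had to be higher there. Among the named members 22 were at or above the filter level on every array and 9 only in wt wounded.

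Position and length were not used by the rule. Of the 37 named members 6 had another within 5 protein-coding genes in the order of the gene table, 16.2%, against 15.2% of the 257 named genes at least 2-fold higher in wounded wt. The 3 pairs were AT1G06620 with AT1G06640, AT4G24350 with AT4G24380, and AT5G19100 with AT5G19110. Neighbours were sought within each set, so a larger set finds more of them, and the 257 include the members. These shares thus cannot show whether the members lie closer together, and nothing is read from them. The median genomic length was 2173 bases for the members, 2113 for the named wt-induced genes and 2306 for all named genes that passed.

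Other jasmonate, stress and dehydration genes show how far the set reaches. Of 89 genes written in 6 lists, 22 had a named probe set and 21 reached the filter level, and none is a member, in part because JRG21, AT2G38240, JMT and PUB23 were left out by name. In the jasmonate turnover list 4 of 11 genes were measured, all 4 were past the 2-fold limit upward in wt and 3 of them in opr3. Their median difference of responses was -3.09, but the genes were split. AT5G05600 was at 0.09, whereas JRG21, AT2G38240 and JMT, which met the rule and were left out by name, were at -4.62, -4.45 and -1.74. Of 19 jasmonate synthesis genes 2 were measured. OPCL1, which activates precursors for beta-oxidation, was at 7.57 in wt control, 8.86 in wt wounded, 7.30 in opr3 control and 7.97 in opr3 wounded. Its difference of responses of -0.62 did not reach the limit.

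No JAZ repressor was named. Of 14 genes of the MYC branch 3 were measured, with a median difference of responses of 0.25 and the thionin gene THI2.1 at about -1.09 on a wt response of 0.77, short of the wt limit. Of 9 dehydration and cold genes, all 4 measured were at least 2-fold higher in both, with a median of 1.62 in wt and 2.54 in opr3. Of 24 rapid stress and calcium genes 8 were measured, and the median was 0.91 in wt and -0.51 in opr3. In that list 4 genes had a difference of responses of -1 or less, of which PUB23 alone was at least 2-fold higher in wounded wt. The medians over all 14599 probe sets are those given above, and nothing particular to a list is read from its few measured genes.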

How the data were processed

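The deposited table holds log2 expression per probe set, for which the authors used RMA and Partek, tools that the submitters' processing notes name without versions. Background correction, quantile normalization and summarisation belong to RMA, which draws low values together, so folds of dim genes are understated and are given with the word about. Which annotation and build the authors used is not given in the sources used here. Total RNA (10 ug) had been turned into biotin-labelled cRNA, per the labels' protocols. Of 22810 probe sets, 64 array controls were set aside.

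Names came from the platform annotation, brought up to date by gene ID from the TAIR10.1 gene table. It pairs 13513 plant probe sets with 1 gene and 503 with several, and 8730 are unnamed here. Differences between single arrays were computed with Python 3.11.15 and pandas 2.3.3, and limma 3.58.1 was used for the normalization alternatives. No test was possible with 1 array per group, whose number limits precision. The code of the selection was tried on simulated data with added responses in wt only. That checks the code and is no support for the members. The members, gene lists and roles were chosen with earlier results of these data known. By the rule for named genes, any member with 1 gene may be named, the 30 with the most negative difference of responses are given on all 4 arrays (the other 7 were added), as are genes nearest the limit. The promoter motifs planned were not analysed here, and no sequences were used.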

Additional observations from a re-analysis of the deposited data

Results flagged for a closer look

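For 2 members the lines moved in opposite directions on wounding, by at least 1.5-fold in each. Probe set 253172_at, unnamed here, was at 6.18 in wt control and 7.66 in wt wounded, and at 6.22 in opr3 control and 5.33 in opr3 wounded, a response of 1.49 in wt and -0.90 in opr3 (log2). Probe set 260399_at, also unnamed here, was at 4.92 and 6.73 in wt and at 5.86 and 5.13 in opr3, a response of 1.81 and -0.73. The first started from alike controls (0.04), the second from a higher opr3 control (0.94). With 1 array per group this difference was not tested.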

How the results depend on the processing

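With no replicates, a median was taken as moved past 0.183, the robust SD of the difference between the control arrays, and a count past 1.5 times. Of the 70 values recomputed, 49 stayed within these bounds and 21 moved, and no median changed sign. Centring each array on its median gave 130 members, quantile normalization 119 and cyclic loess 124, of which 118, 115 and 116 were among the 118 reported. The other values under these 3 scalings were taken over the 118. Quantile normalization put 2 of the 118 at least 2-fold higher in opr3 controls in place of 1, and keeping the genes left out by name gave 3. Requiring every array at the filter level left 72 members, of which 11 were at least 2-fold higher in wounded opr3, 66 lower in opr3 than wt after wounding and 0 higher in opr3 controls. A 1.5-fold limit gave 285 members, with medians of 1.40 in wt and -0.98 for the difference of responses, and counts, in the same order and at that limit, of 85, 249 and 14. A 3-fold limit gave 48, with 2.38 and -1.97, and counts of 4, 46 and 0. With 1 probe set per named gene there were 37 members, of which 5 were higher in wounded opr3 and 32 lower than wt after wounding. Apart from the quantile value, the shifts came from settings in which the members were chosen again. Under the 1.5-fold and 3-fold limits the counts were also made at those limits. What caused each shift was not tested. No paired analysis was possible because each group has 1 array. Signals near background limit 46 members.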
